A study of Mus musculus with 4 samples.

Results

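Granzymes are the serine proteases that cytotoxic lymphocytes pack into secretory granules. The 6 members described here, Gzma, Gzmb, Gzmk, Gzmm, Gzmc and Gzmf, were chosen by symbol among the 32285 genes of the deposited tables. Another 4 mouse granzymes, Gzmd, Gzme, Gzmg and Gzmn, are in the same tables and were followed by their totals. They were measured in T cells sorted as live CD3+ cells from subcutaneous tumors of wild-type C57BL/6J mice. These arose from injected 105K cells, a mouse kidney tumor line that lacks Tsc2. Control tumors carried a non-targeting hairpin (sh-NC, 2 libraries, called control 1 and control 2), and knockdown tumors carried hairpin 1 against B7-H3 (sh-B7-H3 (1), 2 libraries, called knockdown 1 and knockdown 2). Both groups therefore share the Tsc2-deficient line, a stably expressed hairpin and the wild-type host, and B7-H3, an immune checkpoint ligand encoded by Cd276, was targeted in the tumor cells and not in the T cells. Per the labels, 80 tumors of each group were pooled before sorting and the cells were loaded in duplicate lanes, so each p-value below measures the spread between lanes of 2 pools and does not extend to other mice.

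Granzymes are made as inactive precursors, trimmed by the protease cathepsin C (Ctsc), and held in granules on the proteoglycan serglycin (Srgn). After contact with a target cell the granules fuse with the membrane and perforin (Prf1) opens the way for the proteases into the target. Granzyme B cuts after aspartate and starts apoptosis, granzymes A and K cut after basic residues, granzyme M after methionine or leucine, and the functions of granzymes C and F are less well known. Beyond CD8+ T cells, granzyme B is known from activated regulatory T cells, and granzyme K from T cells of inflamed tissues and tumors that have met antigen repeatedly.

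CITE-seq libraries give transcripts and surface tags cell by cell, with transcripts counted as unique molecular identifiers (UMIs) from the 3' end. The 4 libraries held 7030 to 12112 called cells and 79224898 to 132820909 RNA UMIs, and 3021 to 6323 cells of each library passed the filters at a median of 6373 to 8276.5 UMIs. Cd4 cells had at least 1 Cd4 UMI and no Cd8a or Cd8b1 UMI, and there were 1666, 1433, 744 and 937 of them in control 1, control 2, knockdown 1 and knockdown 2. Cd8 cells had at least 3 UMIs of Cd8a and Cd8b1 together and no Cd4 UMI, and numbered 2588, 2317, 1119 and 1479 in that order. Among Cd4 cells, 173, 172, 101 and 105 held a Foxp3 UMI. Foxp3 encodes the lineage factor of regulatory T cells, and the CD25 tag stood at 1004 to 1191 counts per 1000000 tag UMIs (CPM) in these cells against 258 to 269 in the other Cd4 cells. At least 1 UMI of Cd3d, Cd3e, Cd3g or Trac was present in 96.4 to 99.5% of kept cells. The targeted gene could not be checked in sorted T cells, since the kept cells of a library held 0, 1, 1 and 1 Cd276 UMIs. Libraries shared 17 to 35 cell barcodes per pair, at most 0.427% of the smaller library.

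The granzyme genes lie at 3 loci of the mouse genome (GRCm38). Gzmm is on chr10:79689020-79695261, on the plus strand. Gzma (chr13:113093825-113100981) and Gzmk (chr13:113171608-113225908) are neighbors on the minus strand with 70626 bases between them. The other 7 form a cluster on chromosome 14 that spans 144635 bases, and there Gzmb (chr14:56258838-56262260) lies beside Gzmc (chr14:56231441-56234656) and Gzmf (chr14:56205263-56211417). The last 500 bases of the Gzma, Gzmb, Gzmk, Gzmm and Gzmc transcripts share no 50-base word with another granzyme, while 5.10% of such words of Gzmf are also in Gzmg. The 250 bases before the RefSeq starts (GRCm38.p6) of Gzmk and Gzmb are shown because these members carry nearly all results below, and they differ in the motifs they hold. In capitals are matches to the words of the AP-1 (TGANTCA), RUNX (TGTGGT) and T-box (GGTGTGA) families, searched on both strands.
Gzmk, minus strand of chr13:113180966-113181215: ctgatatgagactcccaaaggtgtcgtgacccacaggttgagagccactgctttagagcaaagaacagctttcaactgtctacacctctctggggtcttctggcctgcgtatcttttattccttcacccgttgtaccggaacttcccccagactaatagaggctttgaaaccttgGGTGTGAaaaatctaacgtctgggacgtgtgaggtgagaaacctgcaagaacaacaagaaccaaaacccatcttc
Gzmb, minus strand of chr14:56262335-56262584: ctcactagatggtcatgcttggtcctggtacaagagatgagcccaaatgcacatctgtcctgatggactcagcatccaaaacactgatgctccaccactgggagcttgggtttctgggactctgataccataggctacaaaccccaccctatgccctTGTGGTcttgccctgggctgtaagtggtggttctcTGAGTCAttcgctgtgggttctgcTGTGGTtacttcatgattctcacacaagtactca
The Gzmk promoter holds the T-box word at −75 to −69 from the start. The Gzmb promoter holds the AP-1 word at −58 to −52 and the RUNX word at −93 to −88 and at −34 to −29. In Gzma and Gzmm the RUNX word lies on the opposite strand, at −50 to −45 and at −247 to −242 of their upstream promoters. A second Gzmm promoter holds the T-box word at −189 to −183, and those of Gzmc and Gzmf hold the RUNX word on both strands. Of 32851 promoters of the same length 6.75% hold the AP-1 word, 14% the RUNX word and 3.33% the T-box word. These are letters in a window and no measure of binding. The RefSeq start of Gzmk lies inside the longer gene span of the annotation used for its coordinates.

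Gzmk and Gzmb carried most granzyme RNA in these tumors. Over all called cells Gzmk had 21784 UMIs in 7167 cells, Gzmb 19805 in 4181, Gzma 4320 in 621, Gzmm 1235 in 693 and Gzmc 321 in 240. Gzmf had 4 UMIs in 4 cells and Gzmd 1 UMI, and Gzme, Gzmg and Gzmn had none. The UMIs were counted at transcript ends and not divided by length, so these totals do not rank the genes by transcription. Gzmf was too low for any test, and Gzmm was tested in Cd8 cells and not within the Cd4 sums.

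Gzmk was higher in knockdown than in control tumors in Cd4 and Cd8 cells. A rise in Foxp3 cells rests on few UMIs and was not called in several alternative fits. Its size relative to the other Cd4 cells depends on how Foxp3 cells are set (below). In Cd4 cells Gzmk stood at 36.9 and 40.5 CPM in the control libraries and at 132 and 139 CPM in the knockdown libraries. In Cd8 cells the values were 46.4 and 50.7 CPM against 169 and 163 CPM. No control library reached a knockdown library in either lineage. By edgeR's quasi-likelihood test Gzmk rose by 1.73 ± 0.068 (SE, log2) in Cd4 cells, with an adjusted p of 2.1e-11, and by 1.70 ± 0.046 in Cd8 cells, with an adjusted p of 1.0e-19. A gene was called at an adjusted p under 0.05 and a log2 fold change of at least 1, which took in 8.46% of the 11134 genes tested in Cd4 cells and 8.26% of the 11542 in Cd8 cells. The order of the levels was the same in all 4 libraries at its upper end, with Cd8 cells above Foxp3-negative Cd4 cells (40.0, 44.8, 148 and 151 CPM). At the lower end the levels of Foxp3 cells and of cells without Cd4 or Cd8 RNA (4.99, 6.77, 22.9 and 19.8 CPM) overlapped. The difference between the changes in both lineages was −0.03 ± 0.078 (adjusted p = 0.934), with knockdown effects in Cd8 minus those in Cd4 cells called for 2.72% of 11781 genes.

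**Figure D1:**
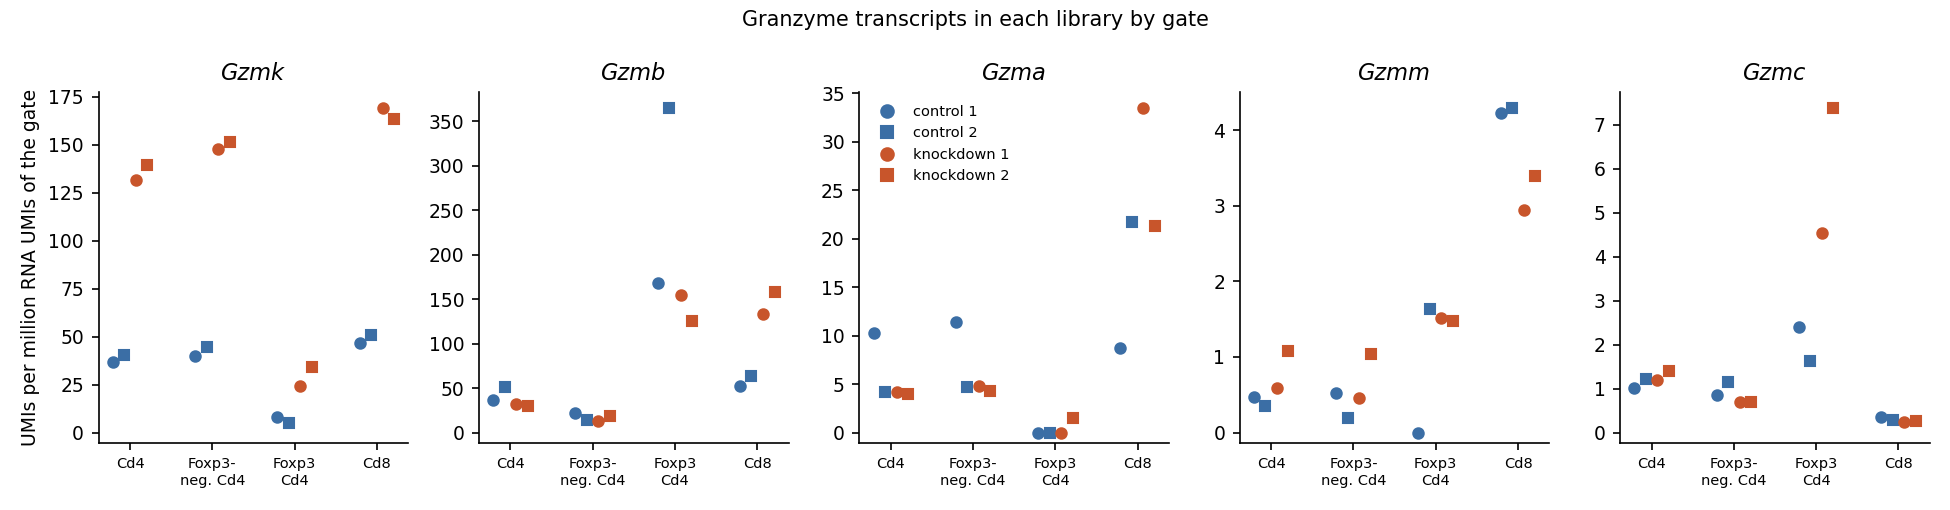
Level of Gzmk, Gzmb, Gzma, Gzmm and Gzmc in CPM (y axes, linear, each with its own scale) by set of T cells (x axes), with 1 point per library and the control and knockdown libraries in separate colors. Gzmk points of the knockdown libraries lie above the control points in each set, and Gzmb points separate upward in Cd8 cells, where they run from 52.9 to 63.1 CPM in control and from 133 to 158 CPM in knockdown.

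The rise of Gzmk came with more cells that held the transcript. A Gzmk UMI was present in 6.60 and 7.75% of Cd4 cells of the control libraries and in 34.5 and 35.3% of those of the knockdown libraries. In Cd8 cells the shares were 12.4 and 15.1% against 48.0 and 48.1%. Because the libraries differ in depth, each cell was thinned to 1000 UMIs, which lowers each share and makes them comparable. The thinned shares were 2.83 and 3.84% against 12.9 and 10.9% in Cd4 cells, and 5.22 and 6.22% against 17.6 and 17.0% in Cd8 cells. The mean shares differed by 8.58 percentage points in Cd4 and 11.6 in Cd8 cells, without overlap of the groups. The exact permutation test gave p = 0.333 for both, the smallest that 2 libraries against 2 allow. Within the cells that held it, Gzmk was lower in the knockdown, at 388 ± 12.9 (SD, n = 2) against 613 ± 15.4 CPM in Cd4 cells and at 407 ± 0.07 against 514 ± 35.6 CPM in Cd8 cells (exact p = 0.333 for each). The higher level in the sums thus came with more positive cells and a lower level per positive cell.

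**Figure D2:**
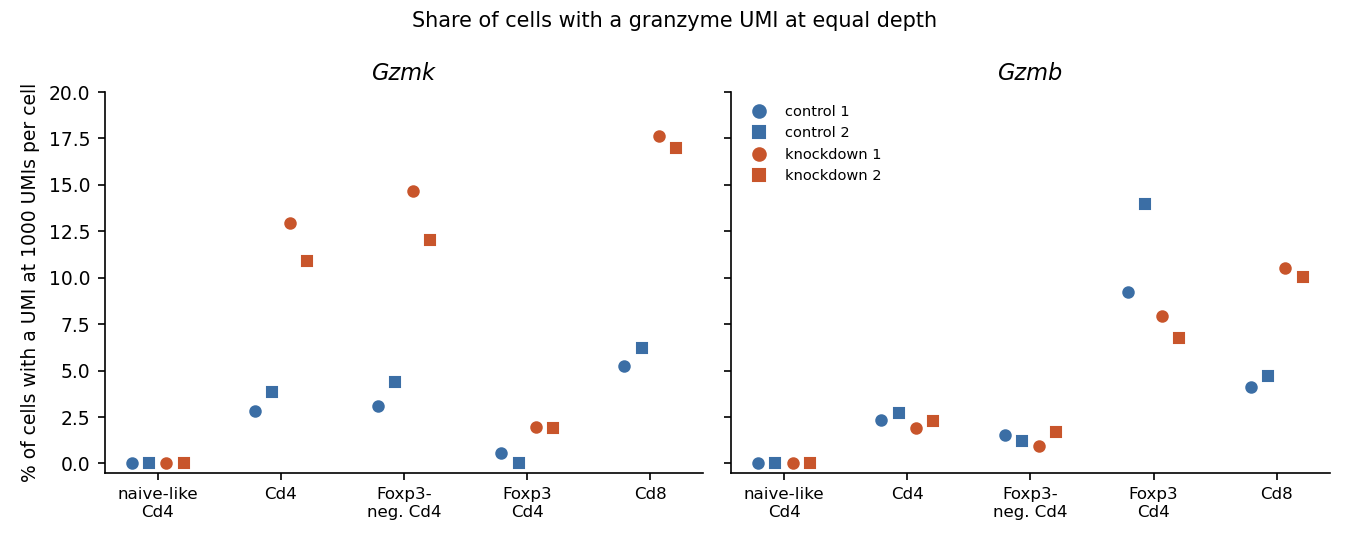
Percentage of cells with at least 1 UMI of Gzmk or Gzmb after thinning every cell to 1000 UMIs (y axes), by set of T cells (x axes), with 1 point per library. For Gzmk, 2.83 to 6.22% of control Cd4 or Cd8 cells and 10.9 to 17.6% of knockdown cells were positive.

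Gzmb rose in Cd8 cells and was not called in Cd4 cells, and its knockdown effects in the lineages differed. In Cd8 cells Gzmb stood at 52.9 and 63.1 CPM in the control and at 133 and 158 CPM in the knockdown libraries, a rise of 1.27 ± 0.066 on the log2 scale (edgeR adjusted p = 3.4e-14). In Cd4 cells it stood at 36.2 and 50.9 CPM in the control and at 31.9 and 29.7 CPM in the knockdown libraries. That difference of −0.58 ± 0.13 had an edgeR adjusted p of 0.00253 and did not reach the fold required for a call. The knockdown effect was larger in Cd8 than in Cd4 cells by 1.84 ± 0.116 (log2, edgeR adjusted p = 5.1e-07), the only call among the 5 members tested for this difference. Gzma (1.75, adjusted p = 0.211), Gzmm (−1.47, 0.295) and Gzmc (−0.51, 0.864) did not pass it. At 1000 UMIs per cell, 4.14 and 4.71% of control Cd8 cells and 10.5 and 10.0% of knockdown Cd8 cells held Gzmb. In Cd4 cells the thinned shares were 2.35 and 2.72% against 1.90 and 2.29%, lower in the knockdown, whereas without thinning they were 4.92 and 5.58% against 7.39 and 6.51%, higher in the knockdown. Cells that held Gzmb carried 806 ± 60.0 CPM in control and 674 ± 106 CPM in knockdown Cd8 cells, and 983 ± 186 against 472 ± 51.9 CPM in Cd4 cells (SD, n = 2, exact p = 0.333 for each).

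Much of the Gzmb of Cd4 cells lay in Foxp3 cells. Of the Cd4 cells with a Gzmb UMI, 40 of 82 in control 1, 39 of 80 in control 2, 18 of 55 in knockdown 1 and 16 of 61 in knockdown 2 held Foxp3. Foxp3 cells made up 10.4 to 13.6% of Cd4 cells, and carried 45.0, 75.9, 63.4 and 44.3% of their Gzmb UMIs. Gzmb was at 168, 365, 154 and 126 CPM in Foxp3 cells and at 22.1, 13.7, 13.5 and 18.5 CPM in Foxp3-negative Cd4 cells, so the lowest Foxp3 value lay above the highest of the others. The difference was 3.31 ± 0.25 on the log2 scale (edgeR with the library as block, adjusted p = 2.6e-06), where 9% of 10028 genes were called. At 1000 UMIs per cell 9.25, 14, 7.92 and 6.73% of Foxp3 cells and 1.54, 1.19, 0.946 and 1.72% of Foxp3-negative Cd4 cells held Gzmb. In control the Foxp3 cells also lay above the Cd8 cells (52.9 and 63.1 CPM), whereas in knockdown the Foxp3 values of 154 and 126 CPM and the Cd8 values of 133 and 158 CPM overlapped. Cells without Cd4 or Cd8 RNA held Gzmb at 40.0, 34.9, 30.8 and 32.4 CPM, between these sets and the Foxp3-negative Cd4 cells. Control 2 had the highest level in Foxp3 cells, and its highest cell held 75 Gzmb UMIs, against 23, 26 and 41 in the other libraries. The 10 highest Foxp3 cells held 57.4, 70.5, 92.2 and 91.8% of the Gzmb UMIs, out of 40, 39, 18 and 16 cells with Gzmb.

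Gzmk was lower in Foxp3 cells than in the other Cd4 cells. It stood at 8.02 and 4.89 CPM in control and at 24.2 and 34.0 CPM in knockdown Foxp3 cells, against 40.0 and 44.8 CPM and 148 and 151 CPM in Foxp3-negative Cd4 cells. The level in Foxp3 cells was lower by 2.69 ± 0.16 (log2, edgeR adjusted p = 3.1e-07). These Foxp3 values rest on 10, 6, 16 and 23 UMIs in 3, 2, 9 and 7 cells. With the knockdown, Gzmk was higher in Foxp3 cells by 2.18 ± 0.43 (edgeR adjusted p = 0.00767), where 0.547% of 7319 genes were called. This call was lost at 1.91 without knockdown 2 (adjusted p = 0.0938), at 2.21 with DESeq2 (0.137) and at 2.16 without a filter on low counts (0.381). In Foxp3-negative Cd4 cells Gzmk was higher by 1.73 ± 0.068 (adjusted p = 2.3e-13), where 10.3% of 10882 genes were called. Gzmb in Foxp3 cells differed by −0.89 ± 0.24 and missed the threshold (adjusted p = 0.0692). It passed without control 1, at −1.33, or without knockdown 1, at −1.03, and lay at −0.26 without control 2. In Foxp3-negative Cd4 cells the Gzmb difference was −0.24 ± 0.20 (adjusted p = 0.371). Knockdown effects in Foxp3 minus those in Foxp3-negative Cd4 cells were called for 4.31% of genes, and for no member, with 0.48 for Gzmk (adjusted p = 0.702) and −0.59 for Gzmb (0.481). With at least 2 Foxp3 UMIs required, this Gzmk difference of effects turned negative. The Gzmk effect in Foxp3 cells relative to that in the other Cd4 cells thus depends on how Foxp3 cells are set, and rests on few UMIs.

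**Figure D3:**
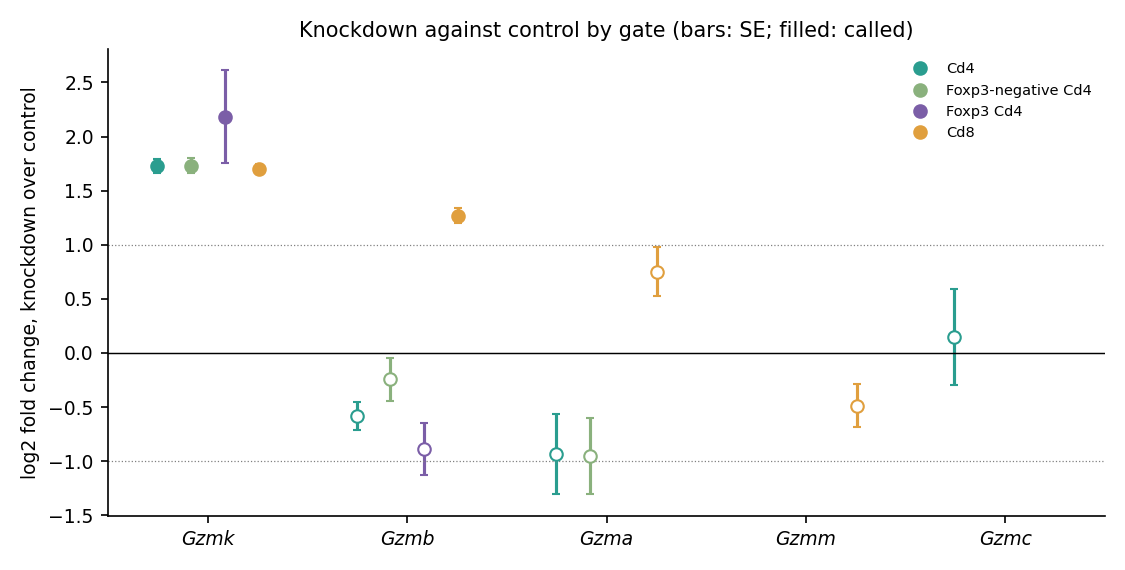
Log2 fold change of knockdown against control (y axis) with its standard error for each tested granzyme (x axis), with 1 color per set of T cells, filled points for called changes and dotted lines at the fold required. Gzmk lies between 1.70 and 2.18 in all 4 sets, and Gzmb at 1.27 in Cd8 cells and between −0.89 and −0.24 in the Cd4 sets.

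Gzma was found in few cells, and a handful of them held most of its UMIs. A Gzma UMI was present in 38, 45, 25 and 20 Cd8 cells (1.47, 1.94, 2.23 and 1.35%), and the 10 highest cells held 83.5 to 95.4% of its UMIs in each library. For Gzmk in Cd8 cells the 10 highest cells held only 5.96 to 9.77%. In control 2 a single Cd8 cell carried 168 of the 460 Gzma UMIs, and the median Cd8 cell with Gzma held 1, 1, 2 and 2 UMIs. The levels of 8.72 and 21.7 CPM in control and 33.4 and 21.3 CPM in knockdown Cd8 cells overlapped between the groups, and the difference of 0.75 ± 0.23 (edgeR adjusted p = 0.00905) did not reach the fold required. It passed without control 2, at 1.53, without knockdown 2, at 1.08, and with lineages set by surface tags, at 1.67, and lay at 0.23 without control 1 and 0.44 without knockdown 1. In Cd4 cells Gzma was at 10.3 and 4.23 CPM against 4.16 and 4.02 CPM, a difference of −0.93 ± 0.37 that was not called (adjusted p = 0.0629). It rested on control 1, since it was −0.13 without that library, and it was called without control 2, at −1.43. Foxp3 cells held 1 Gzma UMI in all, in knockdown 2, while the Foxp3-negative cells of the libraries stood at 11.4, 4.73, 4.79 and 4.31 CPM. The lower level in Foxp3 cells was called (edgeR adjusted p = 0.0011) and is given without a fold because 3 libraries were at 0. It rests on 1 Foxp3 cell and 44 Foxp3-negative Cd4 cells with Gzma over all libraries, so it is not read as a trait of Foxp3 cells.

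Gzmm was higher in Cd8 than in Cd4 cells, and Gzmc rested on few UMIs in both. Gzmm was at 4.23, 4.29, 2.94 and 3.39 CPM in Cd8 cells and at 0.468, 0.345, 0.594 and 1.08 CPM in Cd4 cells, a difference of 2.93 on the log2 scale. The knockdown difference in Cd8 cells, −0.49 ± 0.20, was not called (edgeR adjusted p = 0.0576). Gzmc was at 1.01, 1.21, 1.19 and 1.39 CPM in Cd4 cells and at 0.349, 0.283, 0.245 and 0.268 CPM in Cd8 cells. The latter rest on 8, 6, 2 and 3 UMIs, and the difference of −1.77 lost its call without doublet removal, at −1.17. Foxp3 cells held 3, 2, 3 and 5 Gzmc UMIs, a level of 2.41, 1.63, 4.53 and 7.39 CPM, against 0.865, 1.16, 0.684 and 0.690 CPM in Foxp3-negative Cd4 cells (1.70 ± 0.64, edgeR adjusted p = 0.0857). Between Cd8 and Cd4 cells 6.78% of 11781 genes were called, and with them Gzma, Gzmb, Gzmm and Gzmc of the 5 tested members. The Gzmm difference is one over a Cd4 level too low for a test within Cd4 cells, and that of Gzmc rests on few UMIs. The Gzmm shares of Cd4 cells overlapped those of naive-like cells (below). Gzma (1.78, and 2.72 without control 1) and Gzmb (1.38) were higher in Cd8 cells like Gzmm, while Gzmk differed by 0.49 ± 0.041 (adjusted p = 6.4e-06), under the fold required. The Gzmb value averages over both groups, and the Gzmb gap between the lineages was smaller in control than in knockdown libraries.

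Granzyme UMIs were also counted in cells that should lack them and in barcodes without cells, where they come from free RNA. Among 1431 naive-like Cd4 cells, defined by UMIs of Ccr7, Lef1 and S1pr1 and none of Foxp3, 7 held Gzmk, 7 Gzmb, 5 Gzma, 4 Gzmm, 10 Gzmc and none Gzmf. Their median depth was 7073 to 8537 UMIs. The Gzmk share among them was 0.316, 0.185, 1.94 and 1.30%, and the Gzmb share 0.158, 0.370, 2.91 and 0.649%, from 1 to 3 cells in each library. Both shares were thus higher in knockdown than in control here too, 6.47 times for Gzmk and 6.75 times for Gzmb by the group means, without overlap of the groups (exact permutation test over 2 against 2 libraries, p = 0.333). At 1000 UMIs per cell no naive-like cell held either transcript. The Gzmk and Gzmb shares of Cd4 and Cd8 cells, at least 4.92%, lay above these values. The Gzmb shares of Foxp3-negative Cd4 cells (2.81, 3.25, 5.75 and 5.41%) and the Gzmk shares of Foxp3 cells (1.73, 1.16, 8.91 and 6.67%) lay above the naive-like cells of the same library, the latter on few cells. The Gzmm shares of Cd4 cells, 0.279 to 0.747%, overlapped those of the naive-like cells, 0 to 0.649% per library, and the part of background in them was not tested. The Gzmc shares of Cd4 cells, 0.660 to 0.854%, and of Cd8 cells, 0.179 to 0.259%, also overlapped the naive-like range of 0 to 1.11%, whereas those of Foxp3 cells, 1.16, 1.16, 1.98 and 3.81% from 2 to 4 cells each, lay above it. Gzmc was found more often with Gzmb than without it in 4 of 4 libraries, in 3, 1, 2 and 3 Cd8 cells with Gzmb (1.37, 0.391, 0.697 and 0.822%) against 2, 5, 0 and 0 without it (0.0844, 0.243, 0 and 0%). In Cd4 cells the shares were 3.66, 1.25, 1.82 and 4.92% with Gzmb against 0.505, 0.665, 0.581 and 0.571% without. With each cell thinned to 1000 UMIs, Gzmc was left in 1 Cd8 cell with Gzmb. No test was made on so few cells, and the part of background in the Gzmc values was not tested. The 153 macrophage-like cells held no UMI of any member, which allows a share of up to 1.96%, at the lower median depth of 1610 to 3180 UMIs. In barcodes without cells Gzmk was at 25.8 to 26.4 CPM in the control and at 67.0 to 76.4 CPM in the knockdown libraries, below its Cd4 and Cd8 levels and above its Foxp3 levels. Gzmb was there at 28.4, 35.8, 63.0 and 49.1 CPM, above the level of Foxp3-negative Cd4 cells in 4 of 4 libraries and above that of all Cd4 cells in both knockdown libraries. Gzma was at 7.35, 11.5, 8.95 and 10.4 CPM, above its Cd4 level in all libraries but control 1. Gzmm was at 3.83, 2.95, 2.15 and 2.42 CPM, above its Cd4 level and below its Cd8 level in each library. Gzmc was at 0.799, 0.884, 0 and 1.38 CPM, above its Cd8 level in all libraries but knockdown 1. It lay below its Cd4 level in each library, though closely in knockdown 2. The part of free RNA in the levels of the cells was not tested.

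Markers of other cells also differed between the groups. A UMI of C1qa, C1qb, C1qc or Lyz2 was present in 4.08 and 4.88% of control and in 12.4 and 10.9% of knockdown Cd4 cells. In Cd8 cells these shares were 3.90 and 4.49% against 11.5 and 12.9%. All 8 of 8 myeloid markers were detected in the Cd4 cells, at a summed 57.3 to 269 CPM in control and 134 to 273 CPM in knockdown libraries. Without the cells that held such a UMI the Gzmk change was 1.74 in Cd4 and 1.73 in Cd8 cells and that of Gzmb 1.20 in Cd8 cells, close to the values with all cells. In Foxp3 cells, of which 6.94, 9.88, 16.8 and 17.1% held a myeloid UMI, the myeloid markers summed to 50.5 to 262 CPM in control and 198 to 1118 CPM in knockdown libraries, and the Gzmk change without the cells that held one was 2.87 ± 0.48 (edgeR adjusted p = 0.00404). Of 5 NK cell markers 4 were detected in Cd4 cells, at a summed 24.3 to 32.4 CPM in control and 121 to 130 CPM in knockdown, and the defining marker Ncr1 was at 0. A large part of this sum was Eomes, which is also among the transcription factors of T cells below. Eomes stood at 13.7 and 15.1 against 84.8 and 73.4 CPM in Cd4 cells, and at 28.3 and 28.9 against 81.5 and 69.5 CPM in Cd8 cells. Of 3 gamma-delta T cell markers 2 were detected, at 9.49 to 13.1 CPM against 32.3 to 36.6 CPM, with Trdv4 at 0. In Cd8 cells NK markers summed to 37.1 to 44.3 CPM in control and 114 to 135 CPM in knockdown, with Ncr1 at 0, and gamma-delta markers to 9.42 to 13.6 CPM and 32.3 to 42.6 CPM. The regulatory T cell markers Foxp3, Il2ra, Ikzf2 and Ctla4 summed to 62.9 to 79.2 CPM in control and 213 to 219 CPM in knockdown Foxp3-negative Cd4 cells, where Foxp3 is 0 by definition, and to 27.2 to 31.8 and 107.5 to 107.9 CPM in Cd8 cells. Ikzf2 made up most of these sums, at 41.2 and 53.9 against 176 and 180 CPM in Foxp3-negative Cd4 cells, whereas Il2ra was at 6.75 and 8.20 against 9.12 and 8.28 CPM there. Tumor or stroma markers, 5 of 6 detected, summed to 7.18 to 8.37 CPM in control and 14.1 to 15.5 CPM in knockdown Cd4 cells. The part of these cells in the granzyme changes was not tested beyond the removal of cells with a myeloid UMI. The naive markers Ccr7, Lef1 and S1pr1 summed to 637 to 666 CPM in control and 322 to 323 CPM in knockdown Cd4 cells, and to 499.6 to 509 and 252 to 265 CPM in Cd8 cells.

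Most Cd8 cells with Gzmb also held Gzmk. Over the 4 libraries 913 of 7503 Cd8 cells held both transcripts, 1009 Gzmk without Gzmb, 214 Gzmb without Gzmk and 5367 neither. Among cells with Gzmb, 81.3, 78.9, 77.4 and 85.2% held Gzmk, against 6.08, 7.23, 37.9 and 36.0% of cells without Gzmb. Gzmb in turn was present in 55.3 and 57.5% of control Cd8 cells with Gzmk and in 41.3 and 43.7% of such knockdown cells. At 1000 UMIs per cell the Gzmk share was 36.3 ± 3.76% (SD, n = 4, both groups) in cells with Gzmb and 9.76 ± 6.37% in cells without, higher in 4 of 4 libraries. The class with Gzmk alone made up 5.56 and 6.43% of control and 28.2 and 27.1% of knockdown Cd8 cells. The class with both made up 6.88 and 8.72% against 19.8 and 21.0%. Any of the granzymes was found in 16.4 and 20.1% of control and in 54.9 and 53.2% of knockdown Cd8 cells. At least 3 members occurred together in 62 Cd8 cells, and the highest number in a cell was 4.

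**Figure D4:**
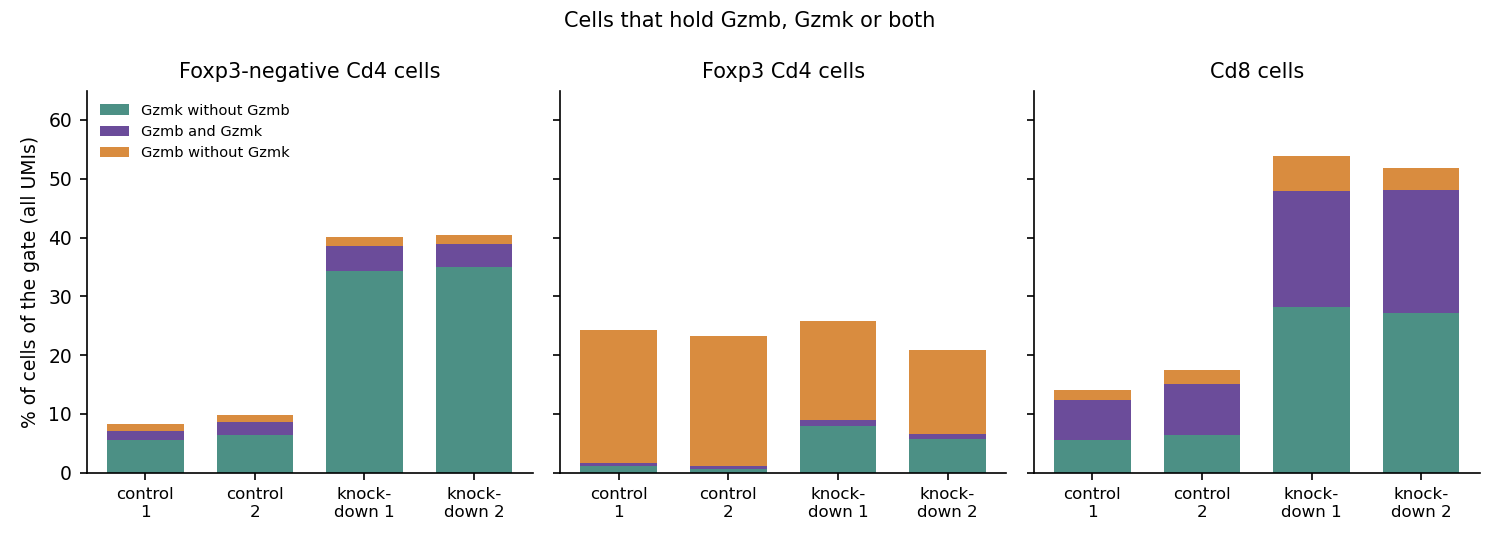
Percentage of cells with Gzmk alone, with Gzmb alone and with both (stacked bars from 0) for each library, in Foxp3-negative Cd4, Foxp3 Cd4 and Cd8 cells. The Gzmk-alone class widens in knockdown Cd8 and Foxp3-negative Cd4 cells, to 27.1 to 28.2% and 34.4 to 35.0%, and Foxp3 cells hold mainly Gzmb alone, 14.3 to 22.5%.

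In Cd4 cells the overlap of both transcripts differed with Foxp3. In Foxp3-negative Cd4 cells 59.5, 65.9, 73.0 and 73.3% of those with Gzmb also held Gzmk. Among Foxp3 cells with Gzmb 4 of 113 held Gzmk, 1 in each library, or 2.5, 2.56, 5.56 and 6.25%. Among Foxp3 cells without Gzmb the Gzmk shares were also low, at 1.504, 0.752, 9.64 and 6.74%, whereas in Foxp3-negative cells without Gzmb they were 5.65, 6.72, 36.5 and 37.0%. The Foxp3-negative class with Gzmk alone made up 5.49 and 6.50% of control and 34.4 and 35.0% of knockdown cells, and the class with both 1.67 and 2.14% against 4.20 and 3.97%. Gzma, where present in Cd8 cells, came with Gzmb in 50.5 ± 6.76% and with Gzmk in 53.8 ± 20.5% of cells (SD, n = 4), against 16.9 ± 8.99% and 30.5 ± 19.8% of cells without Gzma. Gzmk was present in 17.9 ± 11.7% of Cd8 cells with Gzmm and in 31.1 ± 19.9% of the others, lower in 4 of 4 libraries with all UMIs. At 1000 UMIs per cell only 20 Cd8 cells held Gzmm, 1 of them with Gzmk, so the order could not be read there. These shares describe cells of 4 libraries and rise with depth, so they were not tested. Their SDs span control and knockdown libraries and hold the difference between the groups.

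Cd8 cells with Gzmk and with both granzymes carried the RNA of effector and checkpoint genes. Ccl5, a chemokine of activated T cells, was at 280 to 2482 CPM in Cd8 cells with neither transcript, at 16705 to 20323 CPM with Gzmk alone and at 21058 to 25534 CPM with both. Pdcd1, which encodes PD-1, was at 4.85 to 61.2 CPM with neither, 305 to 379 CPM with Gzmk alone and 283 to 388 CPM with both. Lag3, another inhibitory receptor, was at 2.47 to 50.7 CPM, 233 to 291 CPM and 242 to 313 CPM in the same order, so neither Pdcd1 nor Lag3 separated the Gzmk classes from each other. Prf1 was at 43.3 to 47.9 CPM with neither, 107 to 127 CPM with Gzmk alone and 117 to 159 CPM with both. Ifng, the type II interferon, was at 1.74 to 26.1 CPM with neither, 138 to 193 CPM with Gzmk alone and 177 to 226 CPM with both. Tcf7 and Il7r, genes of naive and memory cells, ran the other way, with Tcf7 at 186 to 271 CPM with neither, 15.7 to 42.5 CPM with Gzmk alone and 8.52 to 17.2 CPM with both.

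The Cd8 cells with Gzmb alone differed between the groups, and so did those with neither transcript. In cells with Gzmb alone the Lag3 level was 58.4 and 65.4 CPM in control and 251 and 217 CPM in knockdown libraries, and Ifng was at 27.7 and 46.4 CPM against 168 and 211 CPM. Tcf7 was at 175 CPM in both control libraries and at 53.7 and 46.3 CPM in the knockdown libraries. In control these cells thus lay between the classes with neither and with Gzmk, and in knockdown closer to the latter. They are 41, 54, 65 and 54 cells, and no test was made. In Cd8 cells with neither transcript the group means of Lag3 were 2.56 CPM in control and 40.1 CPM in knockdown libraries. Those of Ifng were 2.22 and 23.6 CPM and those of Tcf7 269 and 186 CPM, so the difference was not particular to cells with Gzmb alone.

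**Figure D5:**
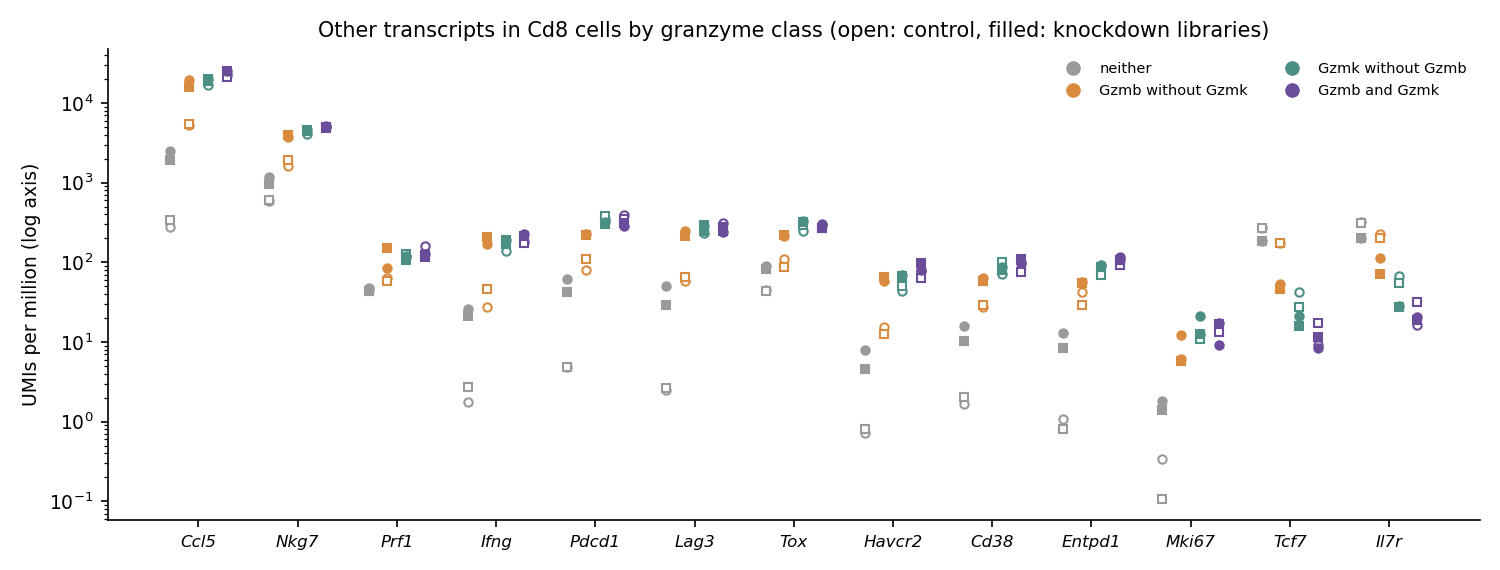
Level in CPM (y axis, log scale) of 13 other genes (x axis) in Cd8 cells grouped by Gzmb and Gzmk (4 classes, by color), with 1 open point per control and 1 filled point per knockdown library; values of 0 are not drawn. Ccl5, Nkg7, Pdcd1, Lag3 and Ifng lie higher and Tcf7 and Il7r lower in the classes with Gzmk than in the class with neither transcript.

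Foxp3 cells with Gzmb alone held little Prf1 RNA and some Nkg7 RNA. Prf1 in them was at 0 in 3 of 4 libraries and at 12.8 CPM, from 3 UMIs, in control 2. Nkg7, a granule membrane protein, was at 160, 196, 677 and 324 CPM, above the 37.7, 51.1, 169 and 221 CPM of Foxp3 cells with neither granzyme. In the same class of Foxp3-negative Cd4 cells, which holds 17, 14, 10 and 12 cells, Nkg7 was at 325, 882, 3191 and 3393 CPM and Prf1 at 0, 51.9, 135 and 88.0 CPM. The gap was thus smaller in control than in knockdown libraries, and for Prf1 there was none in control 1. Foxp3-negative Cd4 cells with both granzymes held more, with Nkg7 at 6198, 5394, 5647 and 6388 CPM and Prf1 at 271, 254, 185 and 242 CPM. The 4 Foxp3 cells with both granzymes held 51, 40, 0 and 0 Nkg7 UMIs and 2, 1, 0 and 1 Prf1 UMIs. Foxp3 itself was at 462, 604, 696 and 544 CPM in Foxp3 cells with Gzmb alone and at 316, 385, 478 and 423 CPM in those with neither, higher in 4 of 4 libraries.

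The genes around the granzymes were read from 36 genes in 4 lists, chosen with earlier results of these data known. In Cd4 cells 12 of 33 tested genes were higher and 3 lower with the knockdown, in Cd8 cells 12 and 4 of 34, in Foxp3-negative Cd4 cells 16 and 3 of 33, and in Foxp3 cells 2 and 1 of 31, where 8.46, 8.26, 10.3 and 0.547% of all tested genes were called in either direction. Of the 12 granule partners, Cst7, Ctsc, Fasl and Nkg7 rose in Cd4 cells, with a list median of 0.75 against −0.00 for all genes. Nkg7 went from 361 and 428 to 2718 and 2492 CPM, a change of 2.64 ± 0.0605 (edgeR adjusted p = 4.3e-14). In Cd8 cells the 4 that rose were Fasl, Nkg7, Rab27a and Stx11, with a list median of 0.45 against 0.00. Nkg7 rose there by 1.34, from 961 and 1063 to 2812 and 2570 CPM. Fasl, a death ligand, rose by 1.75 in Cd4 and 1.56 in Cd8 cells, and Rab27a, which docks granules, by 1.02 in Cd8 cells. Prf1 differed by 0.99 in Cd4 and 0.47 in Cd8 cells and was called in neither, although in Foxp3-negative Cd4 cells it passed, at 1.00. In Foxp3 cells Nkg7 was the only granule partner called, by 2.31, with a list median of 0.30 against −0.01. Among the 11 not called, Fasl, Prf1, Srgn, Ctsc, M6pr and Rab27a were higher in both knockdown than in both control libraries, and the others overlapped. How many of all tested genes separate in this way was not counted, so this is not read as a trait of the list.

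Among the transcription factors Eomes, Tbx21, Prdm1, Zeb2 and Id2 rose in both lineages, Runx3 in Cd4 and Irf4 in Cd8 cells. Eomes and Tbx21 are T-box factors of cytotoxic cells. Eomes went from 13.7 and 15.1 to 84.8 and 73.4 CPM in Cd4 cells (2.37 ± 0.0866) and from 28.3 and 28.9 to 81.5 and 69.5 CPM in Cd8 cells (1.31 ± 0.0662). Tcf7, Lef1 and Klf2, which mark naive and memory cells, fell in both lineages, Tcf7 by 1.28 in Cd4 and 1.21 in Cd8 cells, and Bach2 fell in Cd8 cells. Of the cytokine receptors Il2rb, the beta chain shared by the receptors of interleukins 2 and 15, rose in both, by 2.39 in Cd4 and 1.71 in Cd8 cells. The protease inhibitor gene Serpina3g was the only serpin called, by 1.94 and 1.64, and rose in Foxp3 cells too, by 1.03. The list medians were 0.86 for the transcription factors, −0.05 for the receptors and 0.64 for the serpins in Cd4 cells, and 0.77, 0.36 and 0.32 in Cd8 cells. Against Foxp3-negative Cd4 cells, Foxp3 cells were lower in Prf1 (−2.56), Eomes (−2.35), Nkg7 (−2.32) and Fasl (−2.29), and higher in Il2ra (4.85), Stx11 (2.08) and Srgn (1.44), with 8 genes higher and 8 lower of 33 tested, where 9% of all tested genes were called.

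Surface tags gave a readout that the split by granzyme RNA had not used. In Cd4 cells 14 of 197 named tags (7.11%) differed between cells with and without Gzmk. CD38 is an ectoenzyme of activated cells, and its tag was at 9843, 10965, 39323 and 34847 CPM of tag UMIs in Cd4 cells without Gzmk and at 125693, 134899, 114233 and 121635 CPM in cells with it. The difference was 3.14 ± 0.568 (log2, edgeR with the library as block, adjusted p = 0.0193). CD39 (2.77 ± 0.479, adjusted p = 0.0169), CD200R (1.82 ± 0.274, 0.0110) and PD-1 (1.71 ± 0.333, 0.0245) were higher too. CD73 (−1.74 ± 0.117, adjusted p = 0.00137), CD127 (−1.48 ± 0.217, 0.0104), CD102 (−1.37 ± 0.0376, 0.000168) and KLRG1 (−1.30 ± 0.0688, 0.000856) were lower. KLRG1 was not called by Gzmk in Cd8 cells (0.15 ± 0.0653, edgeR adjusted p = 0.202). Only 21 Foxp3 cells over all libraries held Gzmk, so nearly all Foxp3 cells are among the Cd4 cells without it, and their part in the tag differences was not tested. CD127 is the interleukin 7 receptor of resting T cells, and its tag was at 9041 to 12454 CPM without and 2228 to 3696 CPM with Gzmk. The CD38, CD39 and PD-1 calls were lost when control 1 or control 2 was left out, with values of 2.73 and 2.81 for CD38, 2.43 and 2.50 for CD39 and 1.45 and 1.54 for PD-1. The PD-1 call was also lost without knockdown 2 (1.93), that of CD200R without control 2 (1.66) and that of CD127 without control 1 (−1.36).

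In Cd8 cells 16 of 197 tags (8.12%) differed by Gzmk and 4 (2.03%) by Gzmb. PD-1 was at 1610, 1631, 5120 and 4431 CPM in Cd8 cells without Gzmk and at 9955, 9917, 8827 and 9327 CPM in those with it, so the spread between the groups lay in the cells without Gzmk. Its difference was 1.98 ± 0.439 (edgeR adjusted p = 0.0374). CD38 (2.86 ± 0.633) and CD39 (2.47 ± 0.515) were higher as well, and CD73 (−1.36 ± 0.0594), CD26 (−1.29 ± 0.101), CD127 (−1.25 ± 0.174) and Ly-6C (−1.06 ± 0.126) lower. The calls of CD38, CD39 and PD-1 were lost without control 1, without control 2 and without knockdown 2, at 2.39, 2.45 and 3.24 for CD38, 2.09, 2.14 and 2.78 for CD39 and 1.67, 1.68 and 2.24 for PD-1. The Ly-6C call was lost without either knockdown library, at −0.997 and −0.95. By Gzmb, CD43 (1.18 ± 0.264) and the adhesion molecule CD54 (1.08 ± 0.219) were higher and CD73 (−1.10 ± 0.0806) and CD26 (−1.10 ± 0.111) lower. Without control 2 none of the 4 was called, and CD43 and CD54 were also not called without control 1 or without knockdown 2. CD38 (1.91, adjusted p = 0.0794), CD39 (1.77, 0.0678) and PD-1 (1.40, 0.0997) were higher in cells with Gzmb in 4 of 4 libraries and missed the threshold.

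Across Cd8 cells, the genes whose pattern was most like that of Gzmk were Ccl5 (mean Pearson r over the 4 libraries 0.76), Nkg7 (0.66), AW112010 (0.66), S100a6 (0.64) and Ctla2a (0.62), among 6923 genes compared. For Gzmb they were Ccl5 (0.51), Gzmk (0.50), S100a6 (0.46), AW112010 (0.44) and Nkg7 (0.43). Gzma was most like Gzmb, at 0.21, followed by Klrk1, Slamf7, Lgals1 and Ccl5 at 0.12 to 0.17. Gzmm was most like Ly6c2, at 0.17, followed among the members by Gzma at 0.11 and Gzmc at 0.053, and near 0 with Gzmb (0.00) and Gzmk (−0.03). The points are cells of a library, which share its depth, so these values are descriptions, and those of the sparse Gzma and Gzmm are weak.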

How the data were processed

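The deposited values are UMI counts per gene and per surface tag, which the authors made with Cell Ranger against mm10 (cellranger 6.1.1 in the header of the filtered tables), without normalization. Seurat 4.0.0 is also named in the submitters' processing notes. Following the study's methods, called cells were kept if they had 200 to 3000 genes and no more than 5% of UMIs from mitochondrial genes. Doublets were scored against 2 simulated doublets per cell (2000 variable genes, 30 principal components, 30 neighbors, Otsu threshold) before the upper gene limit was set, and 27.1 to 29.8% of the scored cells were removed. Of the 3499 to 7549 cells per library within all other limits, 3021 to 6323 were kept. Lineages were set by Cd4, Cd8a and Cd8b1 UMIs; 70.3 to 79.8% of Cd4 cells were positive for the CD4 tag alone and 80.3 to 86.5% of Cd8 cells for the CD8b tag alone. Counts were summed per library and cell set, and fitted with edgeR 4.0.16 (TMM, filterByExpr, quasi-likelihood test, Benjamini-Hochberg adjustment over all genes or tags) in R 4.3.3; fits of 2 cell sets per library had the library as a block. CPM are counts per 1000000 UMIs of the summed cells. Shares were compared at 1000 UMIs per cell with an exact permutation test over libraries, two-sided. Intervals and floors cover counting error, and a count of 0 was taken to allow 3 counts. The fits were tested on simulated data. DESeq2 1.42.0, other filters, gates and doublet rules, and leaving out libraries were alternatives. Promoters came from RefSeq (GRCm38.p6), for 6 of 6 members; protein sequences were not used here. The tag without a name was left out, as was a LAG-3 tag, which was not found among the 197 named tags.

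The members and the gene lists were chosen with earlier results of these data known. Named were the 6 members in each cell set, genes called in the 4 lists with values for a few examples, the 5 genes most like each member found in at least 1% of Cd8 cells, fixed per-cell partners, fixed tags, and the 3 called tags with the highest and the lowest changes. The paper's text describes the libraries of a group partly as independent samples and loading of 1 lane, whereas the labels, followed here, give lanes of a pool. One listed gene is not reported here; the naive-like cells were set by the other 3 naive markers, a definition chosen after seeing the data. No batch is given, so handling of a group cannot be told apart from the knockdown.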

Additional observations from a re-analysis of the deposited data

Results flagged for a closer look

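The knockdown effect on Gzmb differed between the lineages, by 1.84 (log2, Cd8 minus Cd4 cells, interaction term of edgeR's quasi-likelihood fit), with a rise in Cd8 cells and lower values in Cd4 cells. The Cd4 values leaned on control 2, where Foxp3 cells held 448 of the 590 Gzmb UMIs. In Foxp3-negative Cd4 cells the Gzmb levels of the groups overlapped, and without thinning the share of Cd4 cells with Gzmb was higher in the knockdown. Several of the listed genes also differed in this comparison, and each of them had the smaller change in Cd8 cells: Stat4 (−0.47), Cst7 (−1.33), Runx3 (−1.14), Nkg7 (−1.31), Ctsc (−0.85), Eomes (−1.05), Prf1 (−0.52), Id2 (−0.21) and Il2rb (−0.68). Gzmb was thus the only one of these genes with a larger change in Cd8 cells.

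The knockdown effects in Foxp3 minus those in Foxp3-negative Cd4 cells differed for Stat4 (−0.73), Zeb2 (−2.54), Cst7 (−1.23), Runx3 (−1.05), Stx11 (−1.51), Prdm1 (−1.45), Srgn (−0.35), Id2 (−1.17), Batf (−0.79), Serpina3g (−1.16) and Il2rb (−2.24), each with the smaller change in Foxp3 cells, and for none of the granzymes.

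Cells with neither Cd4 nor Cd8 RNA were in none of the tests of the report. Their Gzmk level was 4.99 and 6.77 CPM in control and 22.9 and 19.8 CPM in knockdown libraries, 3.63 times as high by the group means. In each library this level lay below that of barcodes without cells, which was 26.4, 25.8, 67.0 and 76.4 CPM and also higher in the knockdown, and the part of free RNA in it was not tested.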

How the results depend on the processing

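Of 842 alternative values of 76 results, 750 kept their direction and their side of the threshold or stayed within the limits set for counts and shares. Genes called in Foxp3 cells (40) were 64 without doublet removal, 84 with lineages by tags, 15 with at least 2 Foxp3 UMIs, 7 without a filter on low counts, 18 by DESeq2 and 53 to 70 with a library left out (64 without control 2, 70 without knockdown 1). Genes with different knockdown effects in Cd8 and Cd4 cells (320) were 573 without doublet removal, 492 without a filter and 225 to 394 with a library left out; for Foxp3 against Foxp3-negative cells (432) they were 279 without cells that held a myeloid UMI and 271 (without knockdown 1) to 375 with a library left out. Called tags by Gzmk in Cd8 cells (16) were 8 to 16 with a library left out and 17 without a library block or with at least 2 UMIs; by Gzmb (4) they were 0 to 6 with a library left out, 8 without a library block and 6 with at least 2 UMIs.

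The sign turned mostly for values near 0 or from few UMIs, and for the Gzmb share difference in Cd4 cells also when thinning was left out. The Gzmc change in Cd4 cells was −0.15 without doublet removal, −0.044 with the 10% highest doublet scores removed, −0.12 by tags and −0.0024 (without knockdown 2) to 0.26 with a library left out, and its Cd8 minus Cd4 difference became 1.38, 1.16 and 0.96 under the first 3. The Gzmk difference between lineages became 0.048 without an upper gene limit, 0.042 without doublet removal, 0.013 with the 10% removed and −0.092 to 0.053 (without knockdown 2) with a library left out. Gzmb in Foxp3-negative cells was −0.54 to 0.16 (without control 1) with a library left out. In the Foxp3 difference Gzma became −0.13 without doublet removal, Gzmk −2.21 with at least 2 Foxp3 UMIs, and Gzmb −1.48 to 0.31 (without control 2) with a library left out. The Gzmb share difference in Cd4 cells (−0.44 percentage points) became 1.70 without thinning and 0.0761 by tags. In Foxp3-negative cells (−0.0334) it became 2.55 without thinning, 0.337 at 2000 UMIs, 0.109 by tags and −0.420 to 0.353 with a library left out. The excess of Gzmk among cells with Gzmb fell, at 1000 UMIs, from 23.7 to 12.3 points in Cd4 (18.5 by tags), from 58.9 to 26.6 in Cd8 and from 46.5 to 30.3 in Foxp3-negative cells. The cause was not tested.

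Same-numbered libraries shared little of their deviation from the group means, which does not settle whether the replicate numbers pair them. With the group mean of each gene subtracted, these deviations correlated across genes at −0.0768 in Cd4 and −0.0109 in Cd8 cells. A replicate block gave 921 called genes in Cd4, 970 in Cd8, 62 in Foxp3 and 1074 in Foxp3-negative cells, and Gzmk changes of 1.72 and 1.70 in Cd4 and Cd8 cells. Fits without a library leave 1 library in a group, which is assumed to vary like the others. At this depth Gzmf and, in Cd4 cells, Gzmm had too few UMIs for a test of the knockdown, and the Gzmc values rest on few UMIs.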
